A study of Homo sapiens with 18 samples.

Results

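The 34 genes described here belong to the ATF4 arm of the integrated stress response, to its sensors or, as ERN1 and XBP1, to a neighbouring branch. They were chosen by gene name from knowledge of the pathway, with earlier results of these data known. Of the 39859 gene symbols listed, 25001 had a read, and 29 of the 34 genes reached 50 reads summed over the 18 libraries, as did 14495 of all symbols. RKO is a human colon carcinoma line, here with doxycycline-inducible Cas9 and a constitutively expressed guide RNA against ERH (sgERH), a small conserved protein linked to mRNA processing, or against the AAVS1 safe-harbour locus (sgAAVS1, the control). All cells, controls included, had 5 days of doxycycline at 100 ng/mL, and the last 4 hours were without cytokine (non-treated, NT) or with IFNγ at 25 ng/mL or IL-1β at 10 ng/mL, which gave 6 groups of 3 libraries each. The inducible Cas9 line was a clone grown from a single cell. Cells carrying a guide were sorted in bulk before editing was induced, so the edited cells were pools and not edited clones. RNA was read by QuantSeq, which reads transcripts near their 3′ end, and the study's methods left out 1 library from each of 3 groups after a principal component analysis. The tests below used the same 15 libraries (n = 2 for sgAAVS1 NT, sgAAVS1 IL-1β and sgERH IFNγ, and n = 3 for sgAAVS1 IFNγ, sgERH NT and sgERH IL-1β). The labels call the replicates biological, but no source says that they were separate cultures, so the p-values measure the spread between these libraries, which may be technical.

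In the integrated stress response, kinases that sense misfolded protein, missing amino acids, double-stranded RNA or heme shortage phosphorylate the translation factor eIF2. Most translation then slows, while the mRNA of the transcription factor ATF4 is translated better because of short reading frames ahead of its coding sequence. ATF4, often paired with C/EBP proteins, switches on genes for amino acid synthesis and uptake and for redox balance, together with DDIT3 (CHOP), CHAC1, TRIB3 and the eIF2 phosphatase subunit PPP1R15A (GADD34), which ends the response. None of these protein-level steps was measured here, and the values below are mRNA levels.

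Total counts per library were 4987127 to 5986338 (median 5242702) in the 15 libraries used. The targeted gene, ERH, ranged from 515 to 592 CPM (counts scaled to a common total of reads) over the 7 sgAAVS1 libraries and from 257 to 355 CPM over the 8 with sgERH. Its reads come from the 3′ end of the mRNA and do not show whether the coding sequence was cut. Of the markers looked up, the epithelial genes KRT8, KRT18, EPCAM and CDX2 were detected, while KRT19 had 0 reads and VIL1, CDH17 and LGALS4 had 1, 1 and 14. Leukocyte markers were at 0 reads for 7 of 10 genes, PTPRC included, and their summed level (390 to 428 CPM with sgAAVS1, 414 to 504 CPM with sgERH) was nearly all CD68. Fibroblast and endothelial markers were at 0 reads for 5 of 10 genes, COL1A1 and PECAM1 among them, with sums of 3.73 to 8.02 CPM for sgAAVS1 and of 0.935 to 4.20 CPM for sgERH, mostly ACTA2. Replicate 2 of sgERH IL-1β stood apart among the libraries used, with a chi-square per degree of freedom of up to 18.3 against its mates where the other pairs used gave 2.57 to 5.99. Results under IL-1β that change without it are given both ways.

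The stress response genes took a larger part of the RNA after ERH targeting. Summed over the members, they made up 1723 to 1800 CPM of total reads (median 1748) in the 7 sgAAVS1 libraries and 2677 to 2909 CPM (median 2842) in the 8 sgERH libraries, with no overlap. ATF4 itself, the most abundant member in every sgERH library, lay at 232 to 282 CPM and 500 to 746 CPM, and the remaining members without ATF4 still summed to 1481 to 1523 CPM against 1931 to 2330 CPM. In bulk RNA, a change in every cell and a larger change in part of the cells cannot be told apart.

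In each treatment sgERH was compared with sgAAVS1 to ask which members depend on the guide. Here a gene rose or fell when its adjusted p in edgeR's quasi-likelihood test was at most 0.05 and its log2 fold change was at least 1 in size, the thresholds of the study, and it was higher or lower when it passed the adjusted p alone. Of the 28 members that passed the filter on low counts, 7 rose in non-treated cells (25% of the members, against 5.95% of all 13370 genes tested), 9 rose under IFNγ (32.1% against 5.24%) and 6 rose under IL-1β (21.4% against 5.68%). No member fell in any treatment with the 15 libraries, where 2.3%, 2.37% and 2.8% of all genes fell. At the adjusted p alone, 13 members were higher and 3 lower in non-treated cells (12.4% and 13.7% of all genes), 14 and 2 under IFNγ (12.4% and 12.6%), and 11 and 2 under IL-1β (13.3% and 13.1%). The median log2 fold change over the 28 members was 0.41, 0.48 and 0.35, while over all genes it was 0.04, 0.04 and 0.02. Without replicate 2 of sgERH IL-1β, in which 15 of the 28 members were below both mates (53.6%, against 40.4% of all genes), 8 members rose under IL-1β (5.16% of all genes), 13 were higher (13.3%) and 2 lower (14.8%). With all 18 libraries, 5 members rose in non-treated cells (2.63% of all genes), 5 under IFNγ (2.01%) and 3 under IL-1β (2.12%). PHGDH then fell in non-treated cells (−1.23, adjusted p = 0.0376; 2.49% of all genes fell). At the adjusted p alone, these 18 libraries gave fewer members. In non-treated cells 7 were higher and 2 lower (3.13% and 3.61% of all genes). Under IFNγ 6 were higher and 0 lower (2.35% and 1.6%), and under IL-1β 4 and 0 (2.52% and 1.46%).

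**Figure D1:**
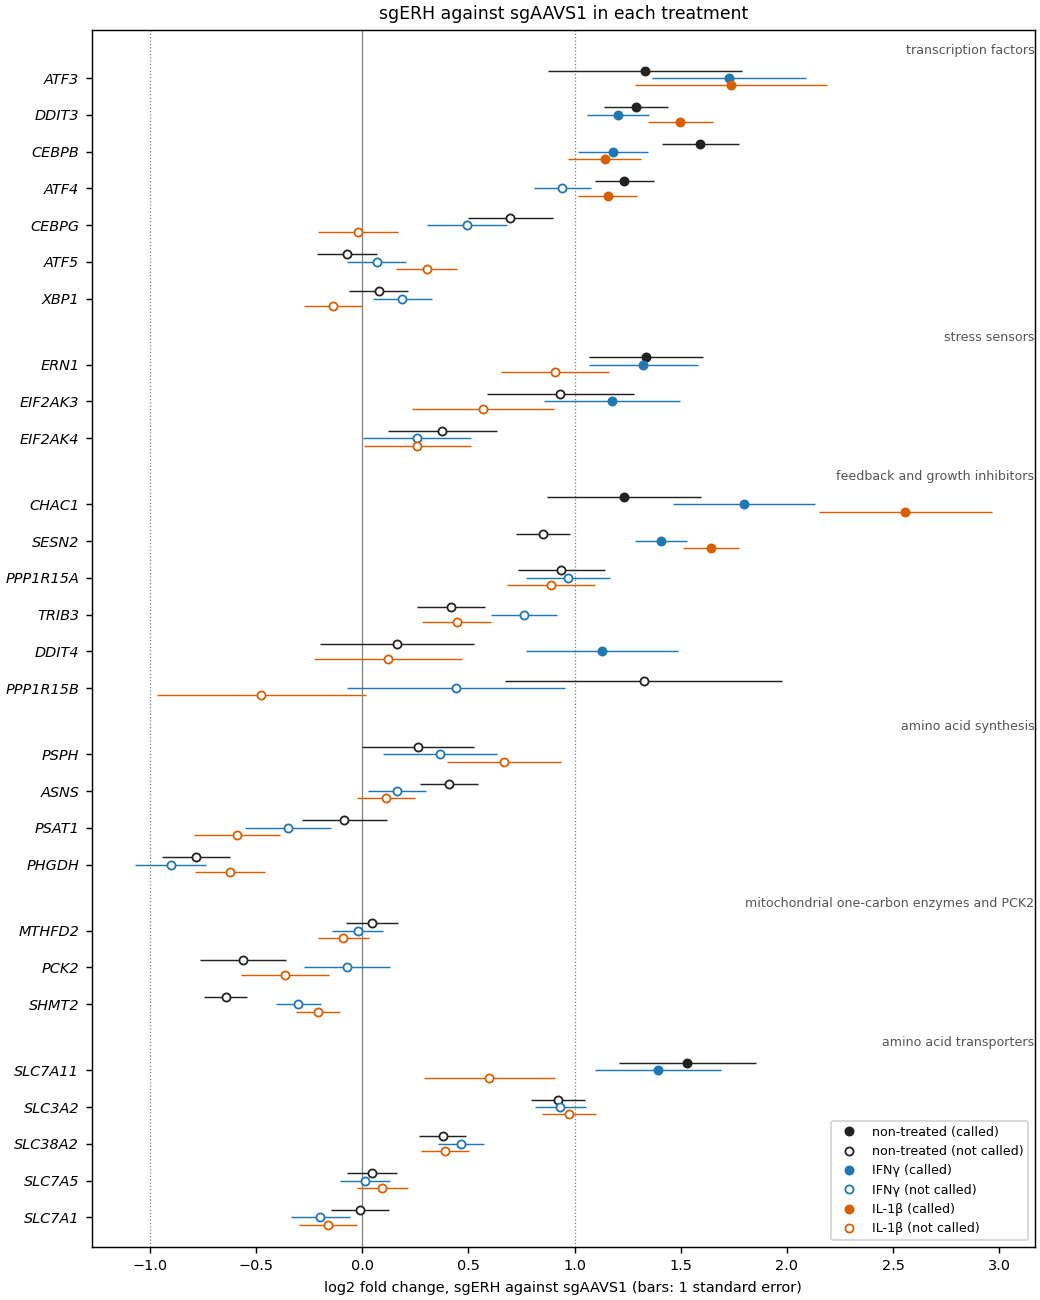
Log2 fold change of sgERH against sgAAVS1 (x axis) for the 28 members tested, grouped by role (y axis), in non-treated, IFNγ and IL-1β cells; bars are 1 standard error, filled points passed the adjusted p and the fold threshold, and dotted lines mark a log2 fold change of 1 in either direction. Filled points lie among the transcription factors, sensors, feedback genes and SLC7A11, and none lies among the synthesis and one-carbon enzymes, where PHGDH is below 0 in all 3 treatments.

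The 3 treatments share no library, but they share the guides and 1 estimate of the spread, so they are not independent tests. In each treatment 4 members rose: ATF3, DDIT3, CEBPB and CHAC1 (2.06% of all genes did so). In each treatment 0 members and 0.8% of genes fell. A further 6 members rose in 1 or 2 treatments, which made 10 in all. At the adjusted p alone and with the 15 libraries, 10 members were higher in every treatment (5.61% of all genes). PHGDH was the 1 member lower in every treatment (6.81% of all genes). With all 18 libraries at most 4 could be higher in every treatment, the count under IL-1β, and 0 were lower under either cytokine. Averaged over the treatments, a comparison that uses all 15 libraries, 8 members rose (28.6% against 6.75% of all genes) and none fell (2.14%), and 16 were higher and 4 lower (25.5% and 23.2%). With all 18 libraries 7 rose on average (5.55% of all genes), 9 were higher (12.1%) and 1 was lower (8.73%). For 8 members the normalised CPM in every sgERH library exceeded that in every sgAAVS1 library (8.1% of all genes), for 2 members it was below in every one (9.56%), and for the other 18 the ranges overlapped. The 8 members that rose on average had a median level in sgAAVS1 of 2.02 to 272 CPM (median 14.6) and the 20 others of 6.16 to 219 CPM (median 48.9), values that also carry differences in 3′ capture between genes.

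Among the transcription factors, ATF4, DDIT3, ATF3 and CEBPB were higher with sgERH in every treatment and CEBPG, ATF5 and XBP1 were not. ATF4 (ENSG00000128272.18; chromosome 22, 39519695 to 39522683, GRCh38), the factor at the head of the response, lay at 289 and 258 normalised CPM in sgAAVS1 NT, at 255, 298 and 242 under IFNγ and at 272 and 273 under IL-1β. In sgERH cells the same gene lay at 666, 719 and 546 normalised CPM without cytokine, at 468 and 552 under IFNγ and at 564, 733 and 529 under IL-1β. Every sgERH library was above every sgAAVS1 library. The log2 fold change was 1.23 ± 0.14 (SE; adjusted p = 3.73e-07) in non-treated cells, 0.94 ± 0.13 (9.53e-06, below the fold threshold) under IFNγ and 1.16 ± 0.14 (9.43e-07) under IL-1β, or 1.11 ± 0.08 on average, a 2.16-fold difference. Without replicate 2 of sgERH IL-1β the IL-1β value was 0.9992, just short of the fold threshold (adjusted p = 3.10e-08). With all 18 libraries the IL-1β call of ATF4 was lost (0.85, adjusted p = 0.0845) and the IFNγ value passed (1.24, 0.0170). In ATF4, 19.9% of reads mapped to more than 1 place and can be shared with its pseudogenes; dropping multimapping reads kept every call on the members.

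DDIT3 (chromosome 12, 57516588 to 57521737), which encodes the pro-apoptotic factor CHOP, had the lowest median coefficient of variation within groups (5.48%) of the factors that rose. Normalised CPM were 22.0 and 19.2 in sgAAVS1 NT, 21.2, 20.9 and 19.0 under IFNγ and 20.8 and 19.9 under IL-1β, against 53.1, 50.3 and 47.8, then 46.2 and 47.8, then 63.2, 56.8 and 52.6 in sgERH. The guides did not overlap, and the log2 fold change was 1.29 ± 0.15 in non-treated cells and 1.20 ± 0.15 under IFNγ, and under IL-1β the difference was 2.83-fold (largest adjusted p = 6.65e-07), or 1.33 ± 0.09 on average. With all 18 libraries DDIT3 was not called under IFNγ (1.29, adjusted p = 0.132) or IL-1β (1.09, 0.198). CEBPB, a C/EBP factor that pairs with ATF4 and also acts in inflammation, lay at 20.5 to 38.4 normalised CPM in sgAAVS1 and at 55.8 to 94.0 in sgERH. Its lowest values, 23.9 and 20.5, were those of non-treated sgAAVS1 cells, and the log2 fold change was largest in that treatment (1.59 ± 0.18, against 1.18 ± 0.16 under IFNγ and 1.14 ± 0.17 under IL-1β). Without replicate 3 of sgERH IL-1β the last value was 0.97, under the fold threshold (adjusted p = 6.10e-05). With all 18 libraries CEBPB was not called under IFNγ (0.79, adjusted p = 0.392) or IL-1β (1.23, 0.152).

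ATF3, an early stress factor that ATF4 and CHOP act on, was scarce, with 1.03 to 4.10 normalised CPM in sgAAVS1 and 3.13 to 11.1 in sgERH. The 2 highest libraries, at 11.1 and 8.90, were the sgERH cells given IFNγ, and the lowest sgERH values, 3.13 and 3.42 without cytokine, lay within the range of sgAAVS1 under IFNγ (2.91, 2.05 and 4.10). The log2 fold change was 1.33 ± 0.46 (adjusted p = 0.0307) in non-treated cells, 1.73 ± 0.36 (0.000792) under IFNγ and 1.74 ± 0.45 (0.00527) under IL-1β. At these counts single libraries mattered: in non-treated cells the call was lost without sgAAVS1 replicate 2, sgAAVS1 replicate 3 or sgERH replicate 3 (adjusted p = 0.127 to 0.140), and under IL-1β without sgAAVS1 replicate 2 (1.33, adjusted p = 0.115).

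CEBPG, a C/EBP partner of ATF4, was higher in non-treated cells (0.70 ± 0.20, adjusted p = 0.00981) and gave 0.49 ± 0.19 (0.0550) under IFNγ and −0.02 ± 0.19 under IL-1β, where replicate 2 of sgERH had 21.3 normalised CPM and its mates 34.1 and 38.4. ATF5, a related factor whose mRNA is also controlled through upstream reading frames, had a mean log2 fold change of 0.10 (95% interval −0.07 to 0.27), and XBP1, the factor that the sensor IRE1 splices, of 0.04 (−0.12 to 0.21). The QuantSeq reads do not tell spliced from unspliced XBP1. NUPR1, a stress-induced chromatin protein, had 0 reads in all 18 libraries, where 3 reads would be 0.0301 CPM of the pooled total.

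**Figure D2:**
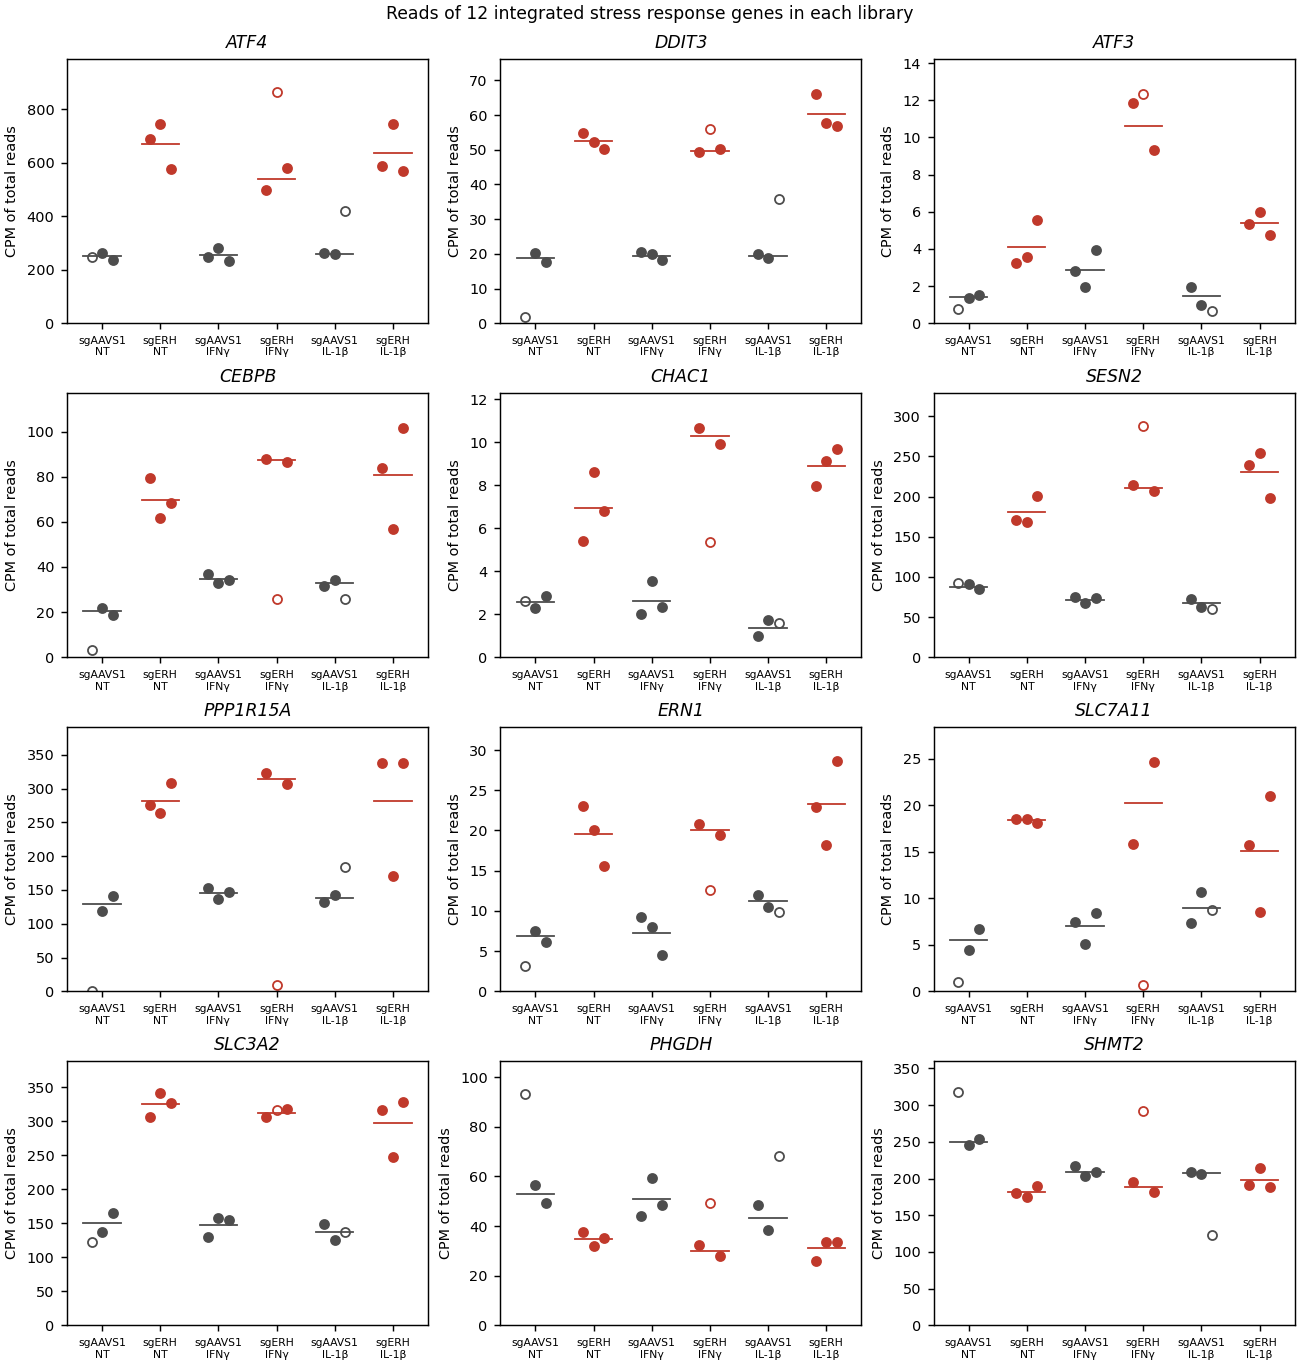
CPM of total reads (y axes, each from 0) of 12 members in every library, by group (x axes; grey sgAAVS1, red sgERH); solid points mark the 15 libraries that entered the tests and hollow points the other 3, and each horizontal line is the mean of the solid points. The solid red points lie above the solid grey ones for ATF4, DDIT3, CEBPB, CHAC1, SESN2, PPP1R15A, ERN1 and SLC3A2 and below them for PHGDH, while hollow points depart from their groups, with PPP1R15A near 0 in 2 of them.

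Of the sensors, ERN1 was higher with sgERH in each treatment, EIF2AK3 under IFNγ and on average, and EIF2AK4 in none. ERN1 encodes IRE1, the endoplasmic reticulum sensor that splices XBP1 and belongs to a neighbouring branch of the unfolded protein response. Its normalised CPM were 4.71 to 12.5 in the 7 sgAAVS1 libraries and 14.8 to 26.5 in the 8 sgERH libraries, without overlap. The log2 fold change was 1.34 ± 0.27 (adjusted p = 0.000542) in non-treated cells, 1.32 ± 0.26 (0.000372) under IFNγ and 0.91 ± 0.25 (0.00869) under IL-1β, the last below the fold threshold and 1.03 without replicate 2 of sgERH (adjusted p = 0.00126). EIF2AK3, or PERK, the eIF2 kinase of the endoplasmic reticulum, rose under IFNγ, from 11.6, 8.59 and 12.7 to 29.0 and 20.5 normalised CPM (1.18 ± 0.32, adjusted p = 0.0102). That call was lost without sgAAVS1 replicate 2 (1.02, adjusted p = 0.0514) or sgERH replicate 1 (0.91, 0.152), or with all 18 libraries (0.70, 0.599). EIF2AK3 gave 0.93 ± 0.34 (adjusted p = 0.0516) in non-treated cells and 0.57 ± 0.33 (0.226) under IL-1β. The IL-1β value was 0.87 without replicate 2 of sgERH and then passed the adjusted p (0.00894). The mean of EIF2AK3 over treatments was 0.89 ± 0.19 (0.000658). For EIF2AK4, or GCN2, the kinase that senses uncharged tRNA, the mean difference was 0.30 (95% interval −0.00 to 0.60).

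Genes that restrain the response or growth included the largest guide difference among the members, that of CHAC1 under IL-1β. CHAC1, a glutathione-degrading enzyme induced by ATF4, had 2.52 and 3.08 normalised CPM in sgAAVS1 NT, 2.08, 3.73 and 2.46 under IFNγ and 1.01 and 1.85 under IL-1β. With sgERH it had 5.22, 8.29 and 6.46 without cytokine, 9.99 and 9.45 under IFNγ and 7.61, 8.96 and 8.95 under IL-1β. The guides did not overlap, and the log2 fold change was 1.23 ± 0.36 (adjusted p = 0.0126), 1.80 ± 0.34 (0.000228) and 2.56 ± 0.41 (3.25e-05), the last a 5.89-fold difference. The sgAAVS1 IL-1β libraries used held only 5 and 9 CHAC1 reads. In non-treated cells the call did not survive leaving out sgAAVS1 replicate 2, sgAAVS1 replicate 3 or sgERH replicate 2 (adjusted p = 0.0570 to 0.101) or adding the 3 other libraries (0.0537).

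SESN2, a stress protein that holds back mTORC1 and senses leucine, was measured more deeply, at 66.2 to 99.5 normalised CPM in sgAAVS1 and 163 to 250 in sgERH. The difference was 0.85 ± 0.13 (adjusted p = 1.32e-05) in non-treated cells, under the fold threshold, 1.41 ± 0.12 (3.35e-09) under IFNγ and 1.64 ± 0.13 (6.62e-10) under IL-1β. PPP1R15A (GADD34) was called in no treatment but stood at 130 to 159 normalised CPM in sgAAVS1 and 167 to 323 in sgERH, again without overlap. Its log2 fold change was 0.94 ± 0.21, 0.97 ± 0.20 and 0.89 ± 0.21 (adjusted p = 0.00362, 0.00231 and 0.00529). The value of 167 belonged to replicate 2 of sgERH IL-1β, whose mates had 323 and 314, and without that library the IL-1β difference was 1.13 (adjusted p = 3.63e-12), past the fold threshold.

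TRIB3, a pseudokinase that damps ATF4 and CHOP, was higher on average by 0.54 ± 0.09 (adjusted p = 2.02e-05), with 28.5 to 41.1 normalised CPM in sgAAVS1 and 40.2 to 59.2 in sgERH. TRIB3 was under the fold threshold in each treatment. It was higher under IFNγ (0.76 ± 0.16, adjusted p = 0.000661) and IL-1β (0.44 ± 0.16, 0.0416) but did not pass in non-treated cells (0.42 ± 0.16, 0.0527). DDIT4 (REDD1), another brake on mTORC1, rose under IFNγ, from 2.91, 6.16 and 4.51 to 10.9 and 9.08 normalised CPM (1.13 ± 0.36, adjusted p = 0.0211). It gave 0.16 ± 0.36 in non-treated cells and 0.12 ± 0.35 under IL-1β. The IFNγ call of DDIT4 was lost without any 1 of sgAAVS1 replicates 1 and 3 and sgERH replicates 1 and 3 (adjusted p = 0.0556 to 0.163) and with all 18 libraries (0.745). PPP1R15B, the phosphatase subunit present without stress, varied widely, with 3 and 21 reads in the 2 sgAAVS1 NT libraries and 0.630 to 15.6 normalised CPM over all. The log2 fold change of PPP1R15B was 1.33 ± 0.65 (adjusted p = 0.155) in non-treated cells, 0.44 ± 0.51 under IFNγ and −0.47 ± 0.49 under IL-1β. Its mean difference was 0.43, with a 95% interval of −0.26 to 1.12. The non-treated value was called in some other settings, such as no filter (1.32, adjusted p = 0.0103) and only the groups compared (1.33, 0.0355).

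Transporters of amino acids divided by gene. SLC7A11, the cystine-glutamate exchanger that feeds glutathione synthesis, had 4.83 and 7.25 normalised CPM in sgAAVS1 NT against 17.9, 17.8 and 17.2 in sgERH NT (1.53 ± 0.32, adjusted p = 0.000844). Under IFNγ it had 7.69, 5.41 and 8.81 against 14.8 and 23.4 (1.39 ± 0.30, 0.00105), and under IL-1β 7.67 and 11.3 against 15, 8.39 and 19.5 (0.60 ± 0.31, 0.155). The value of 8.39 was that of replicate 2, the single sgERH library inside the sgAAVS1 range, and without it the IL-1β difference was 0.86 (adjusted p = 0.0134). The IFNγ call was lost without sgERH replicate 3 (1.02, adjusted p = 0.0624). With all 18 libraries SLC7A11 was called neither there (0.82, 0.596) nor in non-treated cells (1.93, 0.109).

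SLC3A2, the heavy chain that both SLC7A11 and SLC7A5 need at the cell surface, changed evenly, from 133 to 179 normalised CPM in sgAAVS1 to 243 to 330 in sgERH with no overlap. Its log2 fold change was 0.92 ± 0.13, 0.93 ± 0.12 and 0.97 ± 0.13 (largest adjusted p = 3.37e-06), just under the fold threshold in each treatment, and 1.07 under IL-1β without replicate 2 of sgERH (adjusted p = 8.29e-11). SLC38A2, the sodium-coupled SNAT2 transporter of small neutral amino acids, was higher on average by 0.41 ± 0.06 (adjusted p = 5.29e-06). The leucine transporter SLC7A5 (LAT1) had a mean difference of 0.05, with a 95% interval of −0.09 to 0.19, and the arginine and lysine transporter SLC7A1 (CAT1) of −0.12 (−0.28 to 0.04). A 2-fold change averaged over the treatments lies outside both intervals.

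Of the 7 enzymes of amino acid synthesis and mitochondrial metabolism tested, 0 rose, 2 were higher and 4 lower on average (6.75%, 25.5% and 23.2% of all genes). With all 18 libraries only 1 of the 28 members was lower on average (8.73% of all genes). In that setting 0 members, PHGDH included, were lower under IFNγ (1.6%) or IL-1β (1.46%). With only the groups compared, 0 were lower under IL-1β (6.51%). PHGDH, which commits glycolytic carbon to serine, had 40.6 to 62.7 normalised CPM in sgAAVS1 and 24.8 to 36.5 in sgERH, without overlap. It was lower by a log2 fold change of −0.78 ± 0.16 in non-treated cells, −0.90 ± 0.17 under IFNγ and −0.62 ± 0.16 under IL-1β (adjusted p = 0.000581, 0.000233 and 0.00598), none of which reached the fold threshold. SHMT2, the mitochondrial enzyme that moves a carbon from serine to folate, had 214 to 276 normalised CPM in sgAAVS1 and 169 to 210 in sgERH, and was the other member with every sgERH library below every sgAAVS1 library. In CPM of total reads its ranges overlapped. The difference was −0.64 ± 0.10 (adjusted p = 2.96e-05) in non-treated cells, where sgAAVS1 stood at 269 and 276, −0.30 ± 0.10 (0.0350) under IFNγ and −0.21 ± 0.10 (0.141) under IL-1β. Without replicate 2 of sgERH, SHMT2 was lower under IL-1β too (−0.29, adjusted p = 0.0136). SHMT2 lies 281652 bases from DDIT3 on chromosome 12, transcribed the opposite way. At least MARS1 starts between them. MARS1 ends at 57517569, past the 3′ end of DDIT3 at 57516588, and is also transcribed the opposite way to DDIT3. Any effect of this overlap on the counts was not tested. SHMT2 and DDIT3 differed in opposite directions.

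The next step of serine synthesis, PSAT1, was lower on average (−0.34 ± 0.12, adjusted p = 0.0172), and lower under IL-1β (−0.59 ± 0.20, 0.0308). The IL-1β value of PSAT1 did not pass without replicate 2 of sgERH (−0.43, adjusted p = 0.0946). Of its reads 28.2% were multimapping, and without those it passed on average but not under IL-1β. The final step, PSPH, was higher on average (0.43 ± 0.15, 0.0222). Asparagine synthetase, ASNS, a textbook ATF4 target with 67.9 to 89.0 normalised CPM in sgAAVS1 and 74.4 to 109 in sgERH, was higher by 0.41 ± 0.14 (adjusted p = 0.0261) in non-treated cells, with 0.16 ± 0.14 under IFNγ and 0.11 ± 0.14 under IL-1β. MTHFD2, a mitochondrial folate enzyme, had a mean difference of −0.02 (95% interval −0.17 to 0.12), and PCK2, the mitochondrial phosphoenolpyruvate carboxykinase, of −0.33 ± 0.12 (adjusted p = 0.0212). CTH, which makes cysteine from cystathionine, had 64 reads over 14 libraries, with at most 0.960 CPM of total reads in sgAAVS1 and 1.80 CPM in sgERH, and was not tested. CBS, ALDH1L2 and the secreted glycoprotein STC2 had 0 reads and the lipoprotein receptor VLDLR had 1.

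The promoters of the members were read for the element that ATF4 and C/EBP factors bind together (the C/EBP-ATF response element, searched as TGATGNAA) and for the cAMP response element (TGACGTCA), on both strands and from 250 bases before to 50 after each RefSeq start (GRCh38.p14). Of the 29 members matched in that table, 7 held TGATGNAA (24.1%, against 4.46% of 27305 genes), and 1 held TGACGTCA (3.45% against 2.25%). The windows below are those matches, shown because they are the letters a reader would compare with the values above, written 5′ to 3′ along the gene with the match in capitals, and CHAC1 and SLC3A2 carry the element on the opposite strand:
ATF3, chr1:212565205-212565234, plus strand: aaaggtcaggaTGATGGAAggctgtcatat
CHAC1, chr15:40953251-40953280, plus strand: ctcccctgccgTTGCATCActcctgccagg
CEBPG, chr19:33374060-33374089, plus strand: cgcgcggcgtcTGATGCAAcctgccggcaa
ASNS, chr7:97872458-97872487, minus strand: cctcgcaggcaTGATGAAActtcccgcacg
PPP1R15B, chr1:204412026-204412055, minus strand: cccgccccggcTGATGCAAcctcacgctgc
SLC3A2, chr11:62881725-62881748, plus strand: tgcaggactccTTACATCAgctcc
SLC7A1, chr13:29595663-29595692, minus strand: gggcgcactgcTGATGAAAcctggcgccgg
PPP1R15A, chr19:48872352-48872381, plus strand: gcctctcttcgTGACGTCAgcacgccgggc

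The share of promoters with TGATGNAA was close in members that rose and members that did not. It was 2 of 7 (28.6%), ATF3 and CHAC1, among the matched members that rose on average, and 5 of 18 (27.8%) among the matched members that were tested and did not rise. SLC7A1, ASNS and CEBPG carry the letters with mean log2 fold changes of −0.12, 0.23 and 0.39, while DDIT3, SESN2, CEBPB, ERN1 and ATF4, which rose, do not carry them in this window. A match describes the sequence and not binding, and the window ends 250 bases before the start.

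The cytokines changed no member past both thresholds. The count was 0 in the response to IFNγ or IL-1β in either guide (28 members in each of 4 comparisons, edgeR), where 0.598% and 0.628% of all genes rose in sgAAVS1 under IFNγ and IL-1β, and 0.015% and 0.269% in sgERH. The share of genes that fell was 0% under IFNγ in both guides, and under IL-1β 0.00748% in sgAAVS1 and 0.0224% in sgERH. Unadjusted p lay under 0.05 for 4 members under IFNγ in sgAAVS1, 3 under IFNγ in sgERH, 7 under IL-1β in sgAAVS1 and 3 under IL-1β in sgERH. These were 14.3%, 10.7%, 25% and 10.7% of the members, against 9.37%, 6.64%, 12.6% and 14% of all genes. The median log2 fold change of the members was −0.03, 0.02, 0.02 and 0.02 in that order. DESeq2 called 1 member, PPP1R15B under IL-1β in sgAAVS1, and 0 in the other 3.

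**Figure D3:**
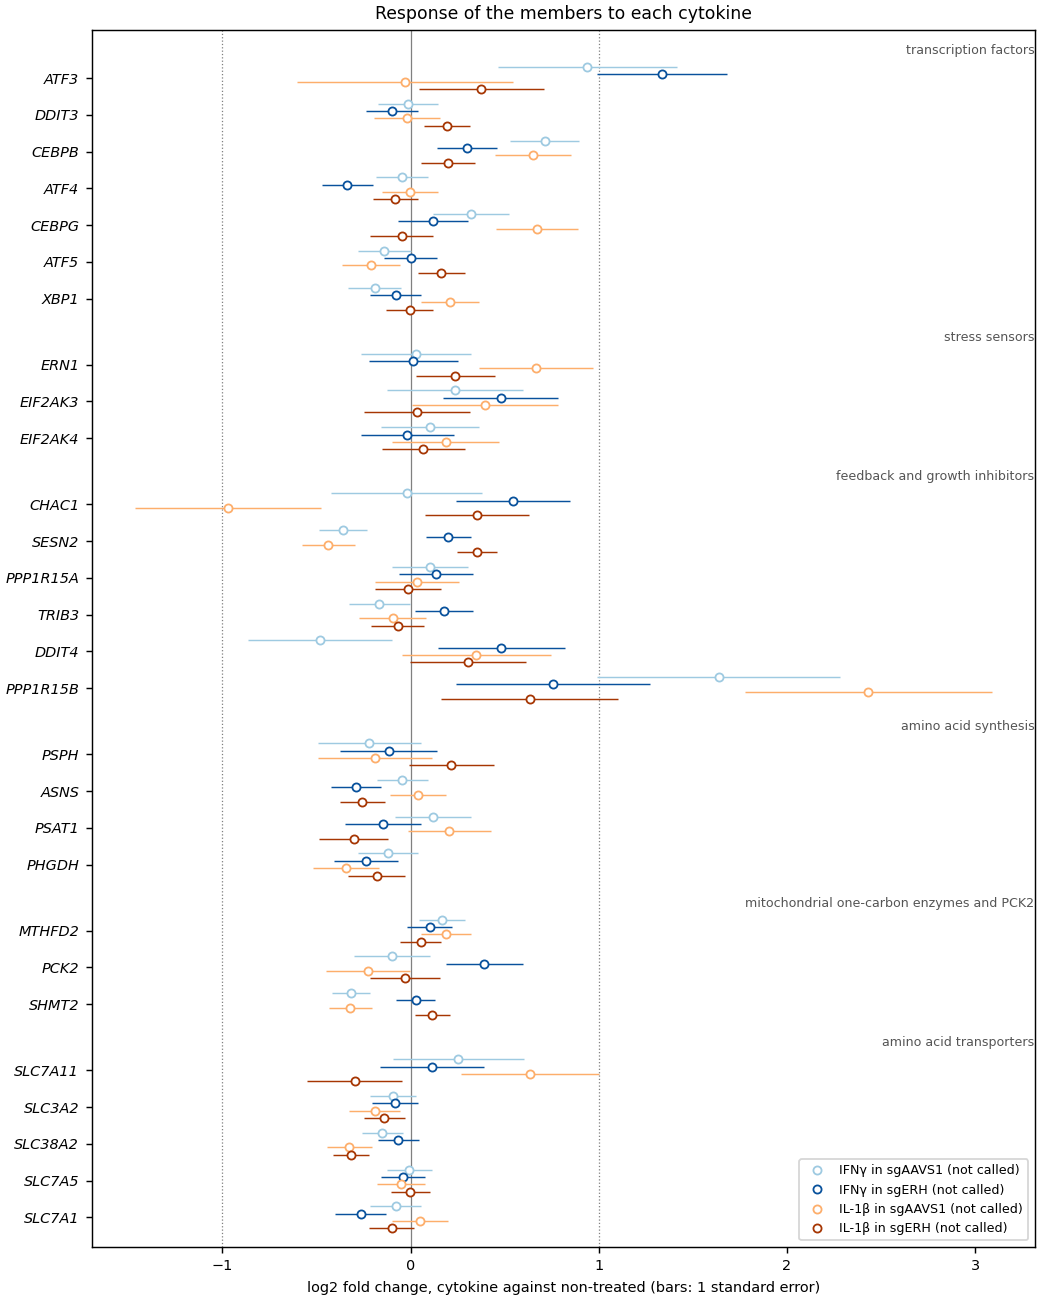
Log2 fold change of each cytokine against non-treated cells (x axis) for the 28 members by role (y axis), in sgAAVS1 (pale) and sgERH (dark); bars are 1 standard error, every point is open because no member passed both thresholds, and dotted lines mark a log2 fold change of 1. Most points lie within 1 of 0, with PPP1R15B and ATF3 farthest to the right.

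In control cells CEBPB had the smallest adjusted p of the members for a cytokine response in the edgeR test, below the fold threshold. It went from 23.9 and 20.5 normalised CPM to 38.4, 34.7 and 35.8 under IFNγ, a log2 fold change of 0.71 ± 0.18 (adjusted p = 0.0638), and to 33.1 and 36.5 under IL-1β (0.65 ± 0.20, 0.129), with neither cytokine group overlapping the non-treated one. In sgERH cells ATF3 under IFNγ went from 3.13, 3.42 and 5.27 to 11.1 and 8.90 normalised CPM (1.33 ± 0.35, adjusted p = 0.311), called among the settings tried only when the test was fitted on the groups compared (0.0464). PPP1R15B under IL-1β in sgAAVS1 gave 2.43 ± 0.66 (adjusted p = 0.108) from 0.630 and 3.81 to 9.49 and 15.6 normalised CPM. It was called by DESeq2 (0.00749) and in other settings, and its starting level rests on 3 and 21 reads.

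Whether a cytokine acted differently in the 2 guides was tested as an interaction, and no member passed for IFNγ or for IL-1β (0 of 28 each, edgeR; unadjusted p under 0.05 for 2 and 6 members, 7.14% and 21.4%, against 5.84% and 11.1% of all genes; DESeq2 also 0). For IFNγ 0.015% of all genes were called higher and 0.187% lower in this test, and for IL-1β 0% either way. SESN2 had the smallest p for IL-1β, with 0.79 ± 0.18 (adjusted p = 0.204): its normalised CPM went from 99.5 and 92.3 to 75.3 and 66.2 in sgAAVS1 and from 165, 163 and 190 to 229, 250 and 184 in sgERH. CHAC1 gave 1.32 ± 0.57 (adjusted p = 0.405) and DDIT4 for IFNγ gave 0.97 ± 0.51 (0.873), so the larger guide differences of these genes under a cytokine were not shown to differ from those in non-treated cells. The cytokine responses and interactions share the non-treated libraries and are not independent of one another.

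Genes related to the members were described by the same counts over the mean of the treatments, where 6.75% of all genes rose, 2.14% fell, 25.5% were higher and 23.2% lower. Among other ATF4 targets, 3 of 17 tested rose and 0 fell (8 higher, 2 lower; median log2 fold change 0.25): KLHL24 (1.84 ± 0.25, adjusted p = 6.90e-07), GDF15 (1.77 ± 0.16, 8.69e-10), a secreted stress cytokine, and GADD45A (1.55 ± 0.07, 5.77e-16). The 20 cytosolic tRNA synthetases, many of them textbook ATF4 targets, had 0 rising, 0 falling, 0 higher and 9 lower, with a median of −0.18. For the 14 factors and kinases of eIF2 and eIF2B, 0 rose and 0 fell (4 higher, 4 lower; median −0.01), and for the 20 chaperones and degradation factors of the endoplasmic reticulum 0 rose and 0 fell (4 higher, 5 lower; median 0.02). Targets of p53, a list that shares GADD45A, SESN1 and TNFRSF10B with the other ATF4 targets, had 5 of 21 rising, 0 falling, 16 higher and 0 lower, with a median of 0.67, led by GADD45A, TP53INP1 (1.54 ± 0.20) and PHLDA3 (1.47 ± 0.08). Among the members, SESN2 and ATF3 are known as p53 targets too. The part of p53 in the members' differences was not tested.

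**Figure D4:**
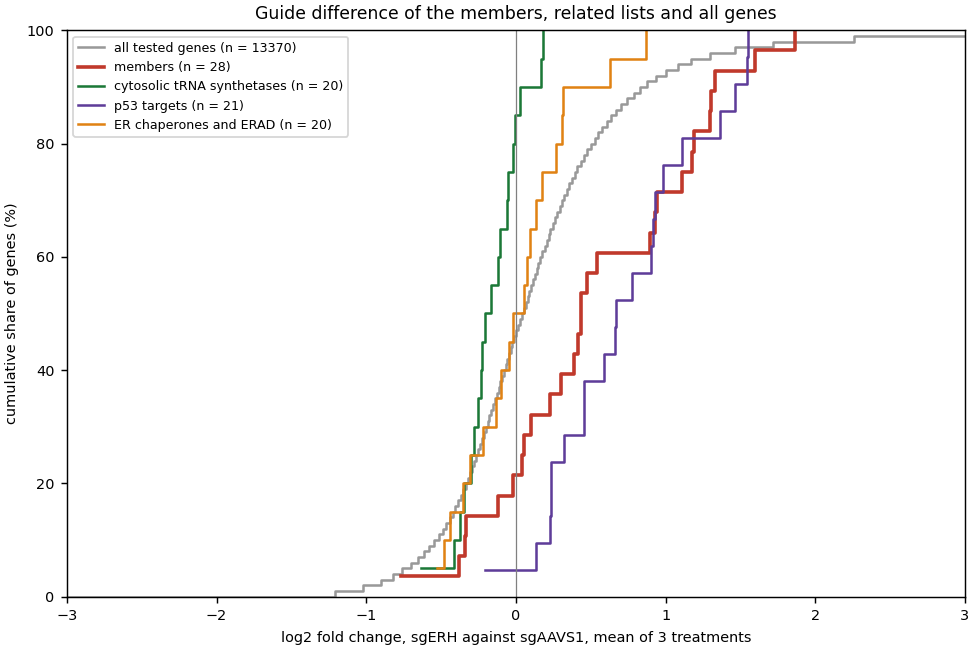
Cumulative share of genes (y axis, percent) against the log2 fold change of sgERH against sgAAVS1 averaged over the 3 treatments (x axis), for all 13370 genes tested, the 28 members and 3 related lists. The members and the p53 targets lie to the right of all genes, with medians of 0.43 and 0.67 against 0.04, and the tRNA synthetases to the left, with a median of −0.18.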

How the data were processed

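Raw read counts per gene from 3′ QuantSeq libraries of RKO cells were analysed as the authors deposited them. Per the labels and the study's methods, reads were checked with FastQC 0.11.8, trimmed with Trim Galore 0.6.2 and mapped to GRCh38 with SlamDunk. Reads were counted in 3′ end windows that the study determined for the cell line using RefSeq and Ensembl annotations. The counts were then collapsed per gene symbol. Reads mapping to several places (20.4 to 23.2% of each library used) are kept in these counts. The files hold no molecular identifiers, so limits for counts of 0 (3 reads) cover counting error only. The library totals of 4987127 to 5986338 reads make 3 reads worth 0.501 to 0.602 CPM. Where a gene has a current and an older symbol that share reads, the one with more reads was used.

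Counts of all genes were fitted with edgeR 4.0.16 (R 4.3.3; TMM, filterByExpr, robust quasi-likelihood F test) in 1 model of the 6 groups with 15 libraries, and p-values were adjusted by Benjamini-Hochberg over 13370 genes. The standard error is the log2 fold change over the square root of F. Normalised CPM are CPM divided by the TMM factor, which was 0.916 to 0.967 in sgAAVS1 and 1.02 to 1.08 in sgERH. The 3 libraries that the study left out entered only an alternative. Alternatives were DESeq2 1.42.0 and its size factors, no filter, all 18 libraries, no multimapping reads, a replicate block, the groups compared alone, and each library left out. The scripts were tested on simulated counts. Every member with 50 reads was described, and members called in a comparison were given with their statistics; single libraries or genes outside this rule were chosen after their values were seen. The members, roles and related lists were chosen with earlier results of these data known. Gene positions are from GENCODE on GRCh38.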

Additional observations from a re-analysis of the deposited data

Results flagged for a closer look

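The 3 libraries that the study left out enter the tests above only where all 18 libraries are named. In each of them the members and genes at large departed from the sgAAVS1 libraries used (CPM of total reads, 28 members and 13370 genes tested). In the library labelled sgAAVS1 NT replicate 1, 4 members were above all 7 sgAAVS1 libraries used and 21 below (14.3% and 75%, against 28.8% and 51.8% of all genes). There PPP1R15A had 4 reads, DDIT3 was at 1.84 CPM and CEBPB at 3.15. ERH was at 52.7 CPM, below the 257 to 355 CPM of the 8 sgERH libraries used. It was below that range too, at 126 CPM, in the left-out sgERH IFNγ replicate 2. ATF4 in sgAAVS1 NT replicate 1 was at 248 CPM, within the 232 to 282 CPM of the 7 sgAAVS1 libraries used. Which guide this library carried was not tested. In sgERH IFNγ replicate 2, 12 members were above all 7 and 10 below (42.9% and 35.7%, against 38.7% and 37.4% of all genes), with ATF4 at 867 CPM and DDIT3 at 56.1, on the side of the other sgERH libraries, and PPP1R15A at 10.0 and SLC7A11 at 0.699, below every library used. In sgAAVS1 IL-1β replicate 3, 8 members were above all 7 and 11 below (28.6% and 39.3%, against 25.8% and 31.7%), with ATF4 at 418 CPM and DDIT3 at 35.8, between the guides. These libraries gave a chi-square per degree of freedom of 62.1 to 119 against their mates.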

How the results depend on the processing

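Of 660 values of called members under the alternatives, 631 kept the call, 29 lost it and 0 changed direction; 1804 values of members not called gave 20 gained calls. Using all 18 libraries kept 19 of 30 calls, the losses standing with each gene above except SLC7A11 on average (1.11, adjusted p = 0.0575): the count of members was 5 under IFNγ and 3 under IL-1β, and the median of the members was 0.73 (NT), 0.38 (IFNγ), 0.50 (IL-1β) and 0.50 (mean) for the guide, 0.23 and −0.038 for IFNγ in sgAAVS1 and sgERH, 0.24 for IL-1β in sgAAVS1, and −0.38 and −0.31 for the interactions with IFNγ and IL-1β. Calls in the cytokine responses changed from 0 to 1 with no filter (PPP1R15B, IFNγ and IL-1β in sgAAVS1), with DESeq2 (PPP1R15B, IL-1β in sgAAVS1) and with only the groups compared (ATF3, IFNγ in sgERH; PPP1R15B, IL-1β in sgAAVS1). ATF3 in non-treated cells was not called with no filter (adjusted p = 0.0527) or by DESeq2 (0.0617). Leaving out 1 library gave 5 to 8 members called for the guide in NT, 7 to 9 under IFNγ, 5 to 8 under IL-1β and 8 to 9 on average, 0 to 1 for IL-1β in sgAAVS1, and 0 in the other cytokine tests. The members' median then ran from 0.411 to 0.55 (NT), 0.45 to 0.67 (IFNγ), 0.32 to 0.44 (IL-1β) and 0.40 to 0.50 (mean), from −0.10 to 0.019 and 0.011 to 0.10 for IFNγ in sgAAVS1 and sgERH, from −0.01 to 0.07 and −0.018 to 0.13 for IL-1β, and from −0.03 to 0.04 and −0.13 to 0.058 for the interactions. ATF4 under IL-1β dropped under the fold threshold without sgERH replicate 2 (0.9992, adjusted p = 3.10e-08). The cause of these changes was not tested.

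Replicate numbers are shared by the groups. Residuals of libraries with the same number correlated by −0.06 to 0.14 (median 0.01, 30 pairs) and those with different numbers by −0.10 to 0.09 (63 pairs). In groups of 2 libraries the residuals mirror each other, so this check cannot show whether the numbers pair the samples. A replicate block kept all 30 guide calls, added ATF4 under IFNγ (1.03) and 1 call, PPP1R15B for IL-1β in sgAAVS1 (2.83). Groups of 2 or 3 libraries and low counts for ATF3, CHAC1 and PPP1R15B limit what could be seen for single genes.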
